A study of Rattus norvegicus with 28 samples.

Results

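The 3 short RNA rows with the highest mean share of gene counts in a rat whole-brain RNA-seq data set were examined in 28 libraries. They are ENSRNOG00000058083 and ENSRNOG00000061096, both listed with a length of 300 bases and with the same count in every library, and ENSRNOG00000058555, listed with a somewhat greater length. They were chosen by their identifiers among 32623 gene rows, selected on listed length, abundance over the libraries and identical counts, so their abundance describes the choice and is not tested. The working names were 7SL-like for the pair and 7SK-like for the longer row. Those names rest on length and abundance only: the files give no gene symbols, and none of the 3 identifiers was found in the RefSeq gene table used here. The rows are therefore called the 300-base pair and the longer row, and no sequence or genome position is given for them.

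As background, 7SL RNA is the scaffold of the signal recognition particle, which brings ribosomes making secreted and membrane proteins to the endoplasmic reticulum. 7SK RNA holds the elongation factor P-TEFb in an inactive complex and so limits the release of paused RNA polymerase II. Both are non-coding transcripts of RNA polymerase III, abundant in most tissues, and neither carries the poly(A) tail of an mRNA. Libraries made from total RNA after ribosomal RNA removal, as here per the labels' protocols, can therefore hold such RNAs.

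The study compared 2 inbred strains, the spontaneously hypertensive rat SHR/OlaIpcv (SHR) and BN-Lx/Cub (BN-Lx), by sex and by stage of the estrous cycle. Each strain had 2 males and 12 females, the females split as 4 at pre-estrus, 4 at estrus and 4 at post-estrus. The labels call the replicates biological and give no age, and their extraction text speaks of male rats only although most libraries are labelled female. Each sample description also carries a suffix, b35 in 15 libraries (8 SHR and 7 BN-Lx) and b37 in 13 (6 SHR and 7 BN-Lx), whose meaning the labels do not state. Gene rows held 42446718 to 87923728 expected counts per library, and 92 rows of spike-in RNA held 1.46% to 6.05% of all counts.

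The 2 rows of the pair had the same expected count and the same TPM, RSEM's abundance per unit of length, in 28 of 28 libraries. The counts of all 3 rows were not whole numbers in 28 of 28 libraries, which is how RSEM writes reads that it divides among transcripts. Reads of the pair can thus not be assigned to either row, and the rows were summed wherever a share is given. No other row had counts identical to those of a member. Length alone does not single the rows out, since 46 gene rows are listed with the length of the pair and 8 with that of the longer row. The RefSeq table names 1 signal recognition particle RNA gene, Rn7sl1 on chromosome 6, with a length of 299 bases, and lists 4 genes as long as the longer row, but none of these could be linked to a member.

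Each row of the pair had 870682 to 6338319 expected counts per library, with a median of 2251664. The longer row had 465792 to 2058246, with a median of 952561. The lowest count of each was in BN-Lx pre-estrus replicate 3 and the highest in BN-Lx post-estrus replicate 4. Together the 3 rows took 4.39% to 16.8% of all gene counts. By counts, each row of the pair ranked between 2 and 4 among gene rows and the longer row ranked 5 in 9 libraries and 6 in 19.

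The ranks differed per length, since TPM divides each count by the effective length, the number of positions at which a fragment can start. The effective length was 129.56 to 164.68 bases for the 300-base rows and 159.85 to 195.23 bases for the longer row. On this scale each row of the pair ranked first in 19 libraries and between 2 and 4 in the others, and the longer row ranked between 3 and 7. The pair held 12.9% to 46.9% of the TPM of gene rows, with a median of 28.9%, and the longer row 2.70% to 9.12%, with a median of 4.48%. The TPM share of the pair was 2.22 to 4.53 times its count share, so the factor between the scales itself differed among libraries. The highest TPM share, 46.9%, was in SHR post-estrus replicate 13, which had the shortest effective length, whereas the highest count share was in BN-Lx post-estrus replicate 4.

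**Figure D1:**
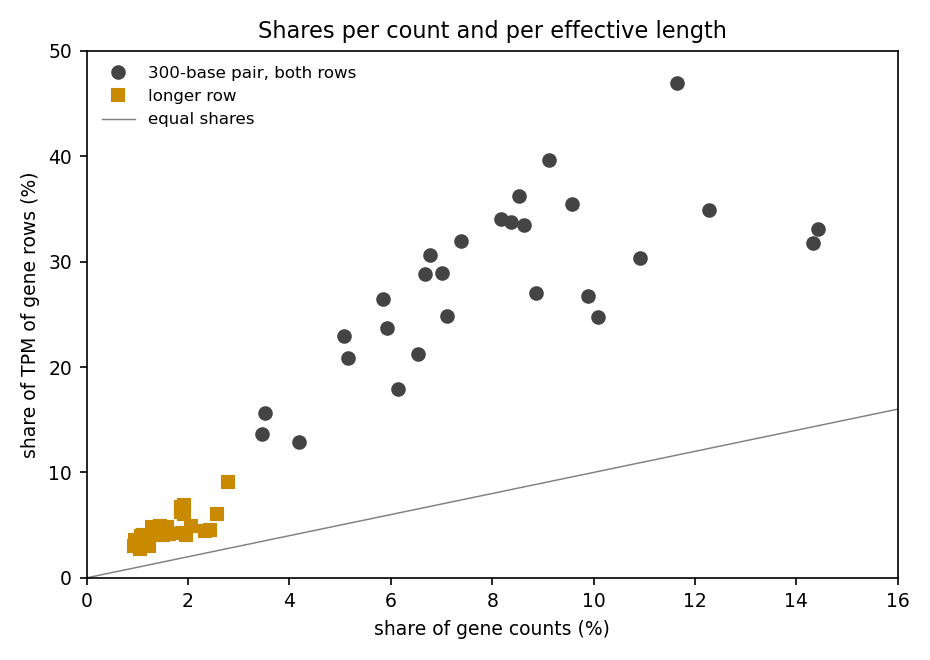
Share of gene counts (%, x axis) against share of the TPM of gene rows (%, y axis) in 28 libraries, for the 300-base pair (circles, both rows summed) and the longer row (squares); the line marks equal shares. All points lie above the line, the pair reaches 46.9% of TPM, and for the pair the library with the highest count share does not have the highest TPM share.

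In SHR males the pair took 6.77% of gene counts in replicate 1 and 8.53% in replicate 2. In SHR females at pre-estrus it took 6.68%, 10.9%, 7.00% and 5.08% in replicates 8, 10, 11 and 12, at estrus 6.14%, 8.63%, 5.84% and 8.17% in replicates 5, 6, 9 and 11, and at post-estrus 6.54%, 8.87%, 7.38% and 11.7% in replicates 6, 8, 12 and 13. Replicate 10 at pre-estrus and replicate 13 at post-estrus stood above the other SHR libraries, and the ranges of all 4 SHR groups overlapped. In BN-Lx males the pair took 10.1% in replicate 1 and 9.57% in replicate 2. In BN-Lx females at pre-estrus it took 3.46%, 8.37%, 5.15% and 7.11% in replicates 3, 5, 7a and 7b, at estrus 3.51%, 9.12%, 9.89% and 14.3% in replicates 2, 4, 8 and 9, and at post-estrus 12.3%, 14.4%, 4.19% and 5.92% in replicates 3, 4, 5 and 6. The BN-Lx females thus held both the lowest and the highest shares of the series, and their 3 stages overlapped. The 95% Wilson intervals reached at most 0.0089 percentage points to either side, so counting error is far below the spread between animals, and such intervals cover counting error only.

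The longer row took 1.07% and 1.38% of gene counts in SHR males 1 and 2. In SHR females it took 1.86%, 2.57%, 1.45% and 1.28% at pre-estrus, 1.23%, 1.91%, 1.11% and 1.88% at estrus and 1.499%, 1.61%, 1.86% and 2.79% at post-estrus, with replicates in the same order as for the pair. The highest value of the series was SHR post-estrus replicate 13, and SHR male 1 was below every SHR female. In BN-Lx males the row took 1.96% and 1.58%. In BN-Lx females it took 0.926%, 1.85%, 1.18% and 1.44% at pre-estrus, 0.962%, 1.93%, 1.88% and 2.43% at estrus and 2.07%, 2.34%, 1.04% and 1.21% at post-estrus. The BN-Lx animals with a low share of the pair were also those with a low share of the longer row. The 4 BN-Lx groups overlapped, as did the 3 stages of SHR females. Both SHR males were below every SHR post-estrus female, and how many other genes separate these animals was not counted. Against all 12 SHR females the males overlapped (exact permutation p = 0.187, adjusted p = 0.735). In whole-brain RNA, fewer cells of a type and less RNA per cell cannot be told apart, which holds for every level given here.

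**Figure D2:**
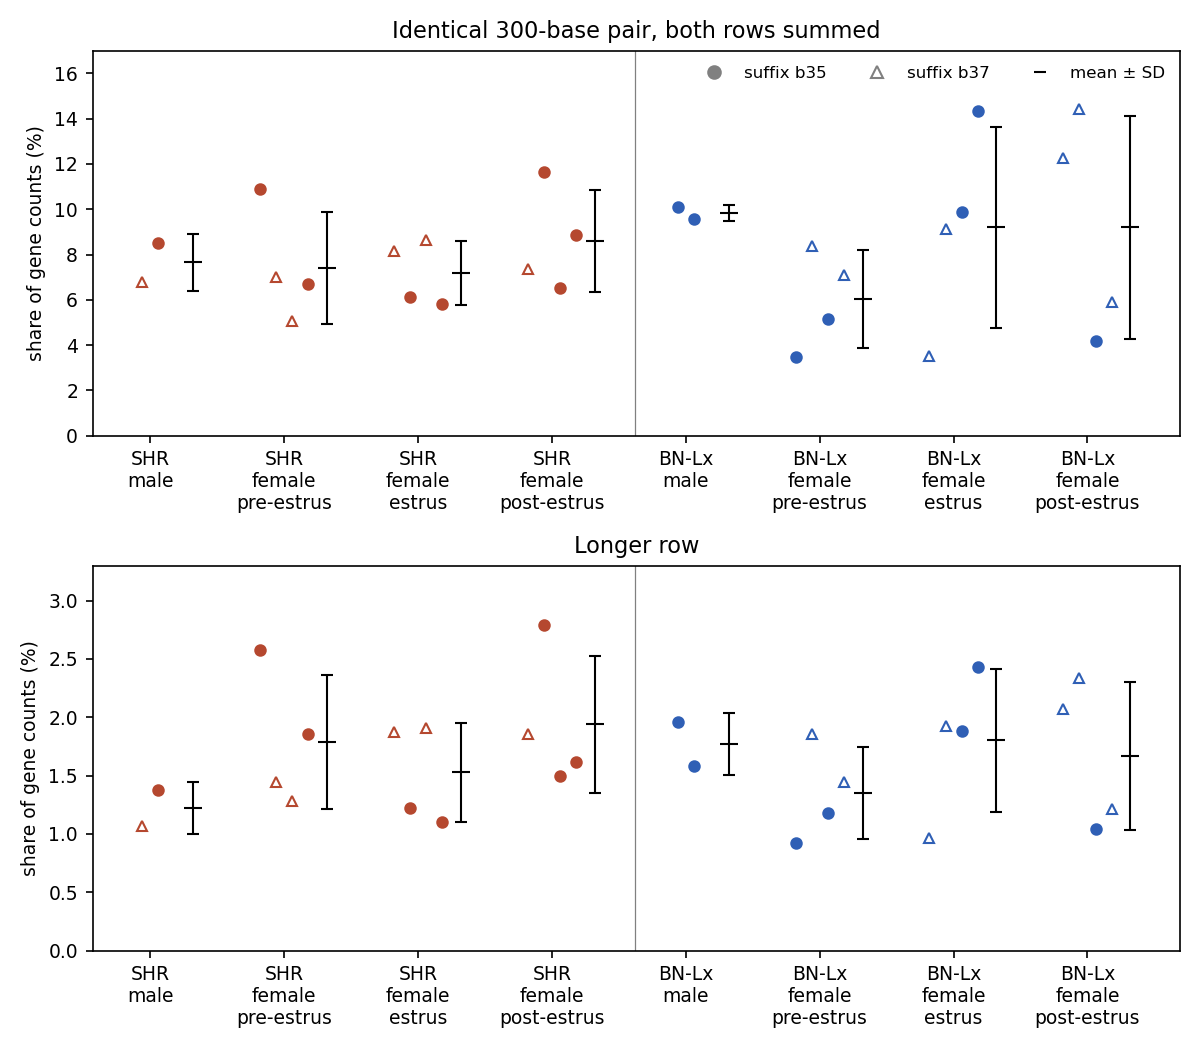
Share of gene counts (%, y axis) of the 300-base pair (upper panel, both rows summed) and of the longer row (lower panel) by group, with 1 point per library (circles b35, triangles b37) and bars for the mean ± SD. BN-Lx females span 3.46% to 14.4% for the pair, and within each strain the female groups overlap in both panels.

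Over the 28 libraries the share of the pair averaged 8.06% ± 2.90 and that of the longer row 1.65% ± 0.503 (SD). On the log2 scale the share of the pair had an SD of 0.34 over the 14 SHR libraries and 0.70 over the 14 BN-Lx libraries. For the longer row the same SDs were 0.42 in SHR and 0.48 in BN-Lx. The wider spread of the pair in BN-Lx is a description, and the difference in spread was not tested. After scaling by TMM, edgeR's trimmed mean of M-values, the SD of log2 CPM (counts scaled to a common library size) within groups was 0.53 for a row of the pair and 0.40 for the longer row. The median of that SD over the 2031 genes that averaged 64 CPM or more was 0.19, and the members stood at percentiles 95.4 and 89.6 of them.

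The strains were compared first, since the study asks how genotype alters the brain transcriptome. For SHR females the share of the pair averaged 7.74% ± 2.00, against 8.15% ± 3.96 for BN-Lx females (SD over 12 animals a strain), a difference of -0.403 percentage points with p = 0.753 and adjusted p = 0.869 in a two-sided permutation test. That of the longer row averaged 1.75% ± 0.515 for SHR females, against 1.61% ± 0.542 for BN-Lx females, with permutation p = 0.498 and adjusted p = 0.735. These differences are small against the spread within each strain. Adjusted values are Benjamini-Hochberg values over a family of 30 tests, 10 comparisons of 3 measures, none of which passed 0.05.

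The members were also tested in a fit across all 18134 genes kept by the low-count filter. By edgeR's quasi-likelihood test the log2 fold change of SHR over BN-Lx females was -0.16 for a row of the pair (SE 0.20, 95% interval -0.58 to 0.26, adjusted p = 0.742). For the longer row it was 0.01 (SE 0.16, 95% interval -0.32 to 0.34, adjusted p = 0.989). None of the 3 rows was called, while 1723 genes, or 9.50% of those tested, passed an adjusted p of 0.05 in this comparison. The intervals still allow differences of up to 0.58 on the log2 scale, so equal levels are not shown. Under spike-in scaling the median log2 fold change of all genes stood at -0.24, against 0.02 under TMM, and the pair then stood at -0.41 and the longer row at -0.26.

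In males, with 2 animals a strain, the pair took 6.77% and 8.53% in SHR and 10.1% and 9.57% in BN-Lx. Both SHR males were below both BN-Lx males for the pair and for the longer row, and how many other genes separate these animals was not counted. An exact permutation test of 2 against 2 gave p = 0.333, the smallest value it can give. By edgeR the log2 fold changes of SHR over BN-Lx males were -0.33 for a row of the pair (SE 0.50, adjusted p = 0.795) and -0.51 for the longer row (SE 0.39, adjusted p = 0.630). Neither passed, in a comparison that called 0.800% of genes. On the TPM scale the difference of the pair was of the other sign, with SHR males 3.32 percentage points above BN-Lx males.

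Between the sexes, the balance of the members was compared as well as their levels. The log2 ratio of the longer row to the pair was -2.66 and -2.63 in the SHR males, and in the 12 SHR females it was -2.46 at the lowest, -2.12 at the median and -1.85 at the highest. Both SHR males were below every SHR female, and how often ratios of other rows separate these animals was not counted. The mean was -2.65 ± 0.026 in SHR males (SD, n = 2) and -2.15 ± 0.18 in SHR females (SD, n = 12), a difference of -0.49 with an exact two-sided permutation p of 0.0110, the smallest that 2 against 12 can give. Its adjusted p over the 30 tests was 0.3297, so the difference did not pass. It was -0.44 among the b35 libraries (1 male and 7 females) and -0.55 among the b37 libraries (1 male and 5 females). The effective length of the 300-base rows was 132.08 and 131.34 bases in the SHR males, against a mean of 147.70 (129.56 to 164.68) in the SHR females. From TPM, which divides by effective length, the log2 ratio was -2.96 and -2.93 in the males and -2.71 at the lowest in the females. A bearing of effective length on the ratio was not tested. In BN-Lx males the ratio was -2.37 and -2.60, and in BN-Lx females it was -2.62 at the lowest, -2.26 at the median and -1.87 at the highest. The BN-Lx males lay within the range of the BN-Lx females, with a difference of -0.23 and an exact permutation p of 0.253.

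Neither row passed the edgeR test between sexes. In SHR the log2 fold change of males over females was 0.05 for a row of the pair (SE 0.37, adjusted p = 1.00) and -0.45 for the longer row (SE 0.30, adjusted p = 1.00). In BN-Lx it was 0.22 for a row of the pair (SE 0.39, adjusted p = 0.904) and 0.07 for the longer row (SE 0.30, adjusted p = 0.964). The edgeR comparison between sexes called 0.0331% of genes in SHR and in BN-Lx. The difference of the sex effect between strains was -0.17 for a row of the pair (adjusted p = 0.926) and -0.52 for the longer row (adjusted p = 0.784) by edgeR, where 0 genes passed, 632 had an unadjusted p under 0.05, limma called 0 and DESeq2 called 3.

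**Figure D3:**
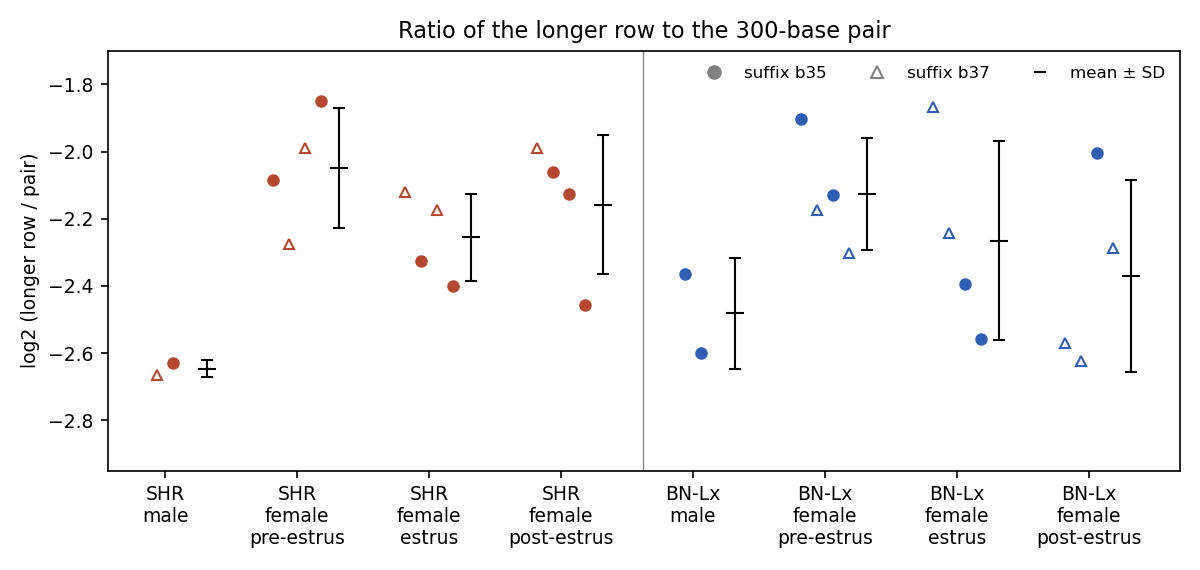
The log2 ratio of the longer row to the 300-base pair (y axis, from expected counts) by group, with 1 point per library (circles b35, triangles b37) and bars for the mean ± SD. The 2 SHR males, at -2.66 and -2.63, lie below all 12 SHR females, and the BN-Lx males lie within the range of the BN-Lx females.

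The stages of the cycle were compared within each strain. In SHR the pair averaged 7.42% ± 2.47 at pre-estrus, 7.20% ± 1.41 at estrus and 8.61% ± 2.25 at post-estrus (SD, n = 4 each). The longer row averaged 1.79% ± 0.577, 1.53% ± 0.424 and 1.94% ± 0.588 at the same stages. All stages overlapped for both, and the exact permutation p of their shares was 0.343 or above in the 3 pairs of SHR stages. In the edgeR test of any stage difference in SHR, F was 0.287 for a row of the pair and 0.647 for the longer row, with adjusted p = 1.00 for both. In that test 0% of genes passed in edgeR, 116 had an unadjusted p under 0.05, and limma and DESeq2 each called 1 gene.

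In BN-Lx the pair averaged 6.02% ± 2.16 at pre-estrus, 9.21% ± 4.44 at estrus and 9.20% ± 4.92 at post-estrus (SD, n = 4 each). The longer row averaged 1.35% ± 0.397, 1.80% ± 0.612 and 1.67% ± 0.635 at the same stages. Estrus and post-estrus each held both high and low animals, and both overlapped pre-estrus. The largest log2 fold change between stages was that of the pair at post-estrus over pre-estrus, 0.67 by edgeR (SE 0.35, 95% interval -0.06 to 1.39, adjusted p = 0.973). Estrus over pre-estrus gave 0.56 for a row of the pair (SE 0.35, adjusted p = 0.858) and 0.37 for the longer row (SE 0.27, adjusted p = 0.858). The edgeR test of any stage difference in BN-Lx gave F = 2.07 for a row of the pair and 1.19 for the longer row (adjusted p = 0.977 for both). It called 0% of genes, with 589 at an unadjusted p under 0.05, 0 called by limma and 3 by DESeq2. The strain-by-stage test gave F = 0.722 for a row of the pair and 1.02 for the longer row (adjusted p = 0.972 for both). It called 0% of genes, with 268 at an unadjusted p under 0.05, 0 by limma and 1 by DESeq2.

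The stage values of BN-Lx differed between the suffixes. Among the b35 libraries the pair took 9.89% and 14.3% at estrus, against 3.46% and 5.15% at pre-estrus, and the only post-estrus animal had 4.19%. Among the b37 libraries it took 3.51% and 9.12% at estrus, against 8.37% and 7.11% at pre-estrus, and 12.3%, 14.4% and 5.92% at post-estrus. The estrus animals were thus above the pre-estrus animals with b35, and on both sides of them with b37. Fitted alone, the b35 libraries gave log2 fold changes of estrus over pre-estrus of 1.33 for a row of the pair and 0.87 for the longer row (edgeR adjusted p = 0.0438 and 0.0490). The b37 libraries gave -0.28 and -0.17 (edgeR adjusted p = 0.910 and 0.923). The b35 fit called 11.5% of 18602 genes for the same contrast, so the members' call was one among 2134. For post-estrus over estrus it gave -1.29 for a row of the pair (edgeR adjusted p = 0.0470) with 12.8% of genes called, in a group of 1 post-estrus animal whose spread is assumed to be that of the other groups. For any stage difference in BN-Lx it called the pair with 15.5% of genes (F = 12.8, edgeR adjusted p = 0.0308). For the strain-by-stage test it called the pair (F = 11.2, edgeR adjusted p = 0.0219) and the longer row (F = 12.0, edgeR adjusted p = 0.0208) with 30.0% of genes. The stage differences of the members therefore did not hold in both sets of libraries. Over all groups, b37 over b35 gave log2 fold changes of 0.0033 for a row of the pair and 0.02 for the longer row (edgeR adjusted p = 0.999 and 0.992), with 0.0551% of genes called.

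**Figure D4:**
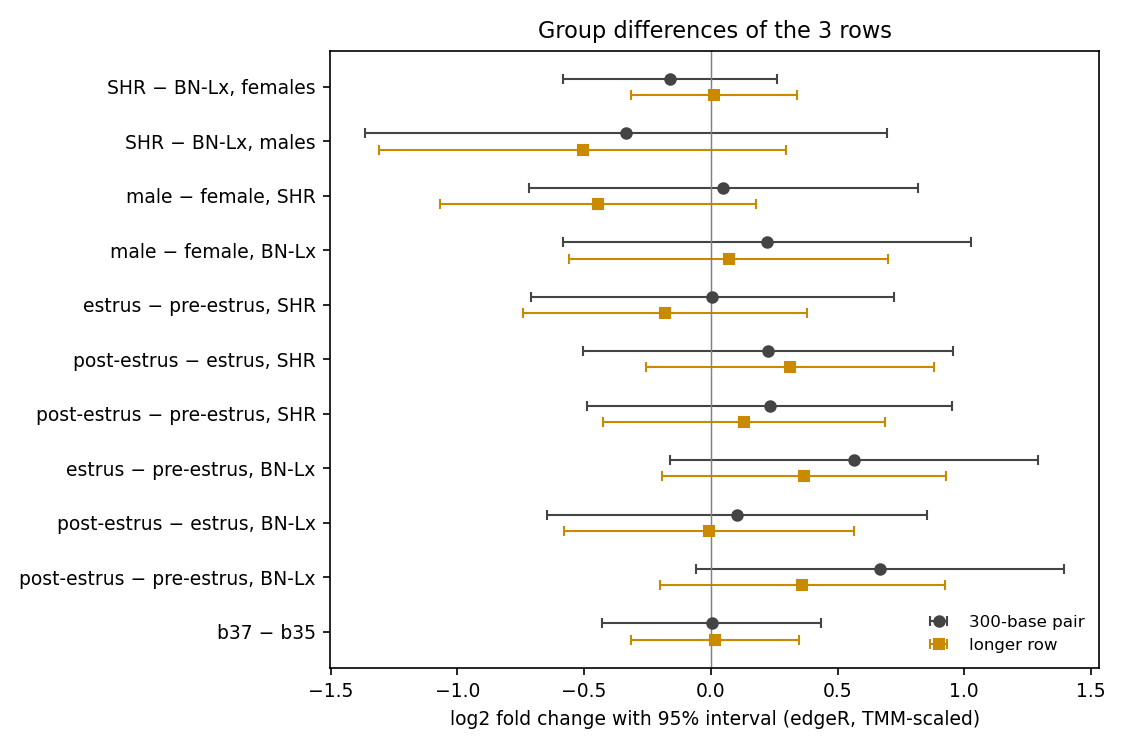
Log2 fold changes with 95% intervals (x axis, edgeR, TMM-scaled) of a row of the 300-base pair (circles) and of the longer row (squares) in 11 comparisons of strain, sex, stage and suffix (y axis). All intervals include 0, and the largest shift, post-estrus minus pre-estrus in BN-Lx, is 0.67 for the pair with an interval of -0.06 to 1.39.

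Across libraries the members moved together. The share of the longer row followed that of the pair with Pearson's r = 0.874 and Spearman's rho = 0.907 over the 28 libraries, each with a permutation p of 1e-05, the smallest that 100000 permutations can give (adjusted p = 4.33e-05 for r and 6.5e-05 for rho over 13 relations). The r was 0.860 within SHR and 0.974 within BN-Lx, 0.877 within b35 and 0.885 within b37, and 0.865 without the 2 libraries farthest from the median share of the pair. After the group means were subtracted it was 0.925. Both shares have the same denominator, total gene counts, which ties them to each other.

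How the spread of the pair compared with that of the longer row differed between the strains. A line of the log2 share of the longer row on that of the pair had a slope of 1.01 in SHR and 0.67 in BN-Lx. The r on this scale was 0.81 in SHR and 0.98 in BN-Lx, and a slope depends on r as well as on the spreads. From animal to animal the pair spread more than the longer row in BN-Lx (log2 SD 0.70 against 0.48) and less in SHR (0.34 against 0.42). The pair held 3.60 to 6.34 times the counts of the longer row, with a median of 4.79, lowest in SHR pre-estrus replicate 8 and highest in SHR male 1. These slopes are descriptions, and their difference was not tested.

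Both members were low where the most abundant gene row, ENSRNOG00000043866 (1571 bases), was high. That row took 13.2% to 35.9% of gene counts, so its share enters the denominator of the members' shares. The share of the pair had r = -0.722 (permutation p = 1e-05, adjusted p = 4.33e-05) and rho = -0.736 (permutation p = 3e-05, adjusted p = 0.00013) with it. Within strains the r of the pair was -0.806 in SHR and -0.901 in BN-Lx. Within suffixes it was -0.801 in b35 and -0.626 in b37, the last with an adjusted permutation p of 0.0915, and it was -0.683 without the 2 libraries farthest in the share of that row. The share of the longer row had r = -0.871 and rho = -0.864 with it (permutation p = 1e-05 for both, adjusted p = 4.33e-05 and 6.5e-05). Its r was -0.957 within SHR, -0.933 within BN-Lx, -0.906 within b35, -0.815 within b37 and -0.831 without the 2 farthest libraries.

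The log2 ratio of the members is free of the common denominator. Over the 28 libraries it had r = 0.117 and rho = 0.032 with the share of the most abundant row (permutation p = 0.549 and 0.874, adjusted p = 0.595 and 0.947). The values within the strains had opposite signs: within SHR r was -0.545 and rho -0.560 (permutation p = 0.0421 and 0.0403, adjusted p of r 0.0714), and within BN-Lx r was 0.766 and rho 0.662 (permutation p = 0.00181 and 0.0122, adjusted p of r 0.00588). The difference between the strains was not tested. Relations with total gene counts and with the spike-in share were weaker. The r with total gene counts was 0.460 for the pair (permutation p = 0.0142, adjusted p = 0.0369) and 0.532 for the longer row (permutation p = 0.00333, adjusted p = 0.0108). The rho was 0.284 and 0.423 (adjusted permutation p = 0.208 and 0.0815), and neither passed. Without the 2 libraries farthest in total gene counts these r were 0.243 and 0.459, with adjusted permutation p of 0.431 and 0.0596. Neither r passed without them, though that of the longer row kept most of its size. After group means were subtracted the r with total gene counts were 0.440 and 0.485 (adjusted permutation p = 0.0408 and 0.0198), and both passed. With the spike-in share r was 0.242 for the pair and 0.442 for the longer row (adjusted permutation p = 0.309 and 0.0397), with rho of 0.243 and 0.351 (adjusted permutation p = 0.275 and 0.176). Without the 2 libraries farthest in the spike-in share these r were 0.155 and 0.274 (adjusted permutation p = 0.667 and 0.380), so the relation of the longer row rests on those libraries. The number of genes detected had r = 0.297 with the share of the pair and 0.289 with that of the longer row (adjusted permutation p = 0.222 for both).

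**Figure D5:**
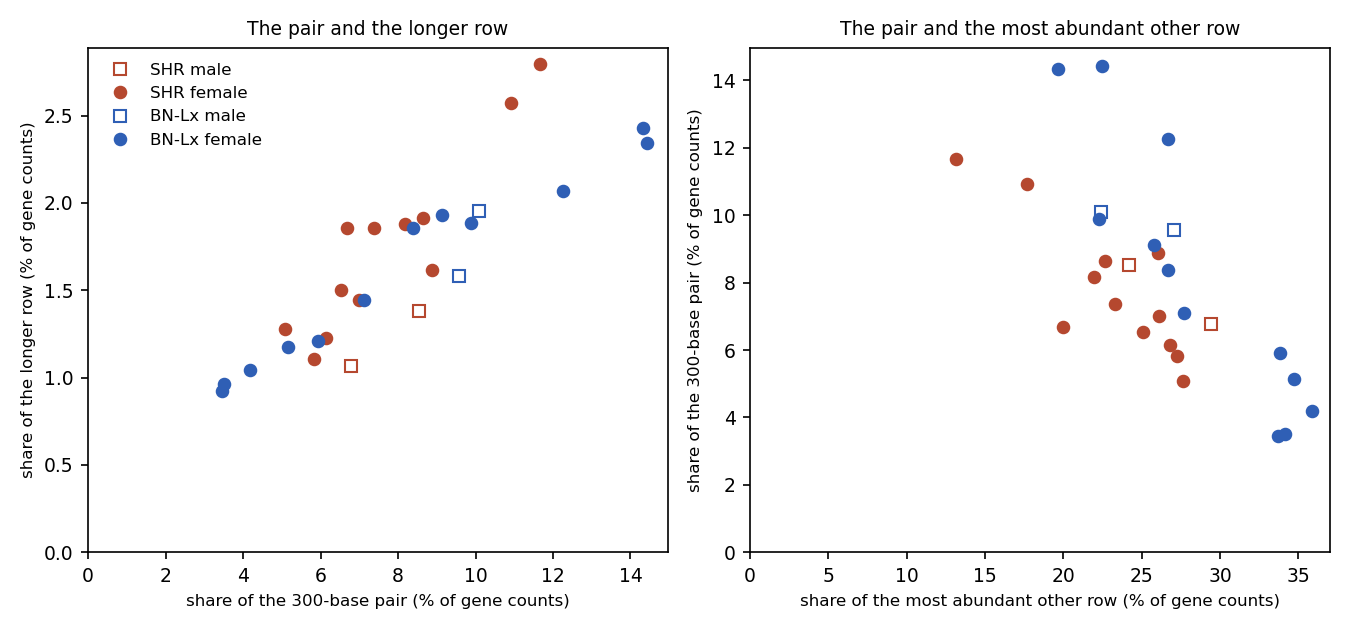
Left, share of the longer row (% of gene counts, y axis) against that of the 300-base pair (% of gene counts, x axis); right, share of the pair (y axis) against that of the most abundant other gene row (x axis). Each point is 1 of 28 libraries, red for SHR and blue for BN-Lx, open squares for males and circles for females; the left panel rises together (r = 0.874) and the right panel falls (r = -0.722), with both SHR males low for the longer row at their share of the pair.

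Among 8658 gene rows that averaged 10 CPM or more, the row most like the pair was ENSRNOG00000059449, with r = 0.971 for log2 CPM over the 28 libraries after group means were subtracted. It is listed with 301 bases, has a mean of 288 CPM, and its expected counts were not whole in 28 libraries, so it may share reads with the pair. A row of the pair had 123 to 178 times its counts, with a median of 139. It was the only one of these rows at least as like the pair as the longer row was, whose r with the pair was 0.933. The row least like the pair was ENSRNOG00000019529 (3004 bases), with r = -0.929.

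For the longer row the most like was ENSRNOG00000001136 (1096 bases, mean 200 CPM, r = 0.965) and the least like ENSRNOG00000018741 (6369 bases, mean 41.7 CPM, r = -0.964). Here 65 rows were at least as like the longer row as the pair was. In all, 19 rows had an r over 0.9 with the pair and 393 with the longer row, while the median r over all rows compared was -0.12 and -0.10. These values are descriptions, in which all rows of a library share its depth and scaling, and say nothing of common function.

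Other short rows did not all behave like the members. Of 1692 gene rows of 250 to 350 bases, 44 reached a mean of 10 CPM, the 3 members and 41 others. The 41 others together averaged 0.530% of gene counts, against 9.71% ± 3.34 (SD, n = 28) for the 3 members. The members were selected on abundance, so this contrast follows from the choice. The median r of the 41 others with the pair was 0.14, from -0.81 to 0.97, and 17 of the 41 had an r over 0.5. With the longer row the median was 0.14, from -0.83 to 0.94, and 17 of the 41 had an r over 0.5.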

How the data were processed

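Whole-brain total RNA of 28 rats was depleted of ribosomal RNA, made into stranded TruSeq libraries and sequenced as paired-end reads, per the labels' protocols. The deposited expected counts, TPM and effective lengths are RSEM output, 1 file per library, and cutadapt is also named, per the submitters' processing notes; for their versions, the genome build and the annotation nothing is given in the sources used here. A deposited matrix of the same counts differed by at most 0.5 and was not used further.

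Groups were taken from the labels. Expected counts were rounded, rows were kept by edgeR's filterByExpr (count minimum 10) and tested in edgeR 4.0.16 (R 4.3.3; TMM, quasi-likelihood, robust) with 8 groups and the suffix as a term, adjusted by Benjamini-Hochberg over all 18134 genes. Spike-in rows stayed out of library sizes. DESeq2 1.42.0 and limma 3.58.1 were alternatives, and DESeq2's likelihood ratio test of several contrasts was given another form after a first value had been seen. Shares of gene counts were compared by exact permutation tests, or 100000 permutations for 12 against 12, two-sided, with numpy 2.4.6. The edgeR and permutation code was tested on simulated data.

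The members, lists and comparisons were chosen with earlier results of these data known. Besides the members, the gene with the highest and the gene with the lowest correlation with each were to be named, among genes averaging 10 CPM or more. The 12 lists of marker and pathway genes, 77 symbols in all, could not be used, since 0 symbols could be linked to the files' identifiers through the RefSeq table. Replicate numbers of the titles gave no clear sign of pairing. Of 18 pairs with the same number in different groups, 2 had a correlation of their deviations over 0.1, from -0.33 to 0.16. Only 8 of the pairs were within a strain, and 0 of these were over 0.1. Deviations from the means of groups of 2 to 4 make this a weak check. The replicates are labelled biological, so the p-values measure the spread between the animals as labelled. Each sample description also carries a number that animals can share, 199890 for both SHR males and 200537 for both BN-Lx males. The labels do not state its meaning. The main edgeR fit and the permutation tests treat animals that share it as independent.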

Additional observations from a re-analysis of the deposited data

How the results depend on the processing

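None of the 3 rows was called in any group comparison, and no setting that left out 1 library changed that; the calls that appeared came from the b35 libraries alone and from 1 form of a DESeq2 test. A change of sign is counted below even where the value was not called under either setting, and the cause of these changes was not tested unless the construction shows it. Of 1396 alternative values, 156 had the other sign, 86 of them in settings other than leaving out 1 library.

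With the b35 libraries alone, where the fits hold 15 libraries and BN-Lx has 1 post-estrus female, the F of any stage difference in BN-Lx was 12.8 for the pair, and that of strain by stage was 11.2 for the pair and 12.0 for the longer row. Estrus over pre-estrus in BN-Lx gave log2 fold changes of 1.33 and 0.87 for the pair and the longer row, and post-estrus over estrus -1.29 for the pair. Uncalled values with the other sign were log2 fold changes of -0.40 for the pair at estrus over pre-estrus in SHR, -0.15 for the longer row at post-estrus over pre-estrus in SHR and 0.20 for the pair between strains in females. The log2 ratio differed by 0.47 at post-estrus over estrus and 0.0115 at post-estrus over pre-estrus in BN-Lx. Share differences in percentage points were -0.117 (pair) and -0.00765 (longer row) at post-estrus over pre-estrus in BN-Lx, -0.245 (longer row) for the same stages in SHR, 0.438 (pair) between sexes in SHR and 0.687 (pair) between strains in females.

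With the b37 libraries alone, log2 fold changes were -0.28 (pair) and -0.17 (longer row) at estrus over pre-estrus in BN-Lx, 0.42 (longer row) for these stages in SHR, 0.48 (longer row) at post-estrus over estrus in BN-Lx, -0.17 (pair) and -0.016 (longer row) for these stages in SHR, and -0.058 (longer row) between strains in females. Share differences were -1.43 (pair) and -0.203 (longer row) at estrus over pre-estrus in BN-Lx, 2.36 and 0.532 for these in SHR, 4.55 and 0.428 at post-estrus over estrus in BN-Lx, -1.02 and -0.0382 for these in SHR, and -0.0125 (longer row) between strains in females. The log2 ratio differed by 0.18 at estrus over pre-estrus in BN-Lx and 0.14 at post-estrus over pre-estrus in SHR.

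Scaling and tools moved values near 0. Spike-in scaling gave log2 fold changes of the longer row of 0.056 (estrus over pre-estrus, SHR), 0.14 (post-estrus over estrus, BN-Lx), -0.0305 (post-estrus over estrus, SHR), -0.15 (sex, BN-Lx) and -0.26 (strain, females), and of the pair of -0.086 (post-estrus over estrus, SHR), -0.035 (sex, BN-Lx) and -0.10 (sex, SHR). Without TMM the pair had -0.053 (estrus over pre-estrus, SHR), -0.031 (post-estrus over estrus, BN-Lx) and -0.015 (sex, SHR), with the median of all genes at 0.15 for strain in females. DESeq2 and RLE factors gave 0.00091 and 0.00092 for the longer row at post-estrus over estrus in BN-Lx and -0.00081 and -0.00085 for the pair between suffixes. limma gave -0.065 (pair, estrus over pre-estrus, SHR), -0.055 (pair, post-estrus over estrus, BN-Lx), -0.087 (longer row, post-estrus over pre-estrus, SHR) and -0.024 (longer row, strain, females). The libraries compared alone gave 0.036 (longer row, post-estrus over estrus, BN-Lx). The description number as a block gave 0.13 (longer row, estrus over pre-estrus, SHR), -0.15 (pair, post-estrus over estrus, BN-Lx) and -0.0057 (pair, sex, SHR), and could not be fitted for strains, whose numbers do not overlap.

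The replicate block called no member, and the numbers gave no clear sign of pairing. It gave 0.055 (longer row, estrus over pre-estrus, SHR), -0.22 (pair, post-estrus over estrus, BN-Lx), 0.87 (longer row, sex, SHR), and 0.018 and -0.036 (pair and longer row, strain, females). The pair between sexes was at 1.94 in SHR and 2.63 in BN-Lx. The males shared a replicate number with no female other than BN-Lx estrus replicate 2. By construction the sex values of this block thus rest on that library, in which the pair took 3.51% of gene counts.

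DESeq2's test of any stage difference in BN-Lx gave the pair a chi-square of 14840 and a call when the reduced model was written in rotated columns, and 4.37 with adjusted p = 0.984 in plain columns with up to 1000 iterations. The second form was chosen after the first value had been seen. Both reduced models have rank 7, also when joined, so they are the same model, and DESeq2 reported both as converged. A larger statistic for the same model means a lower fitted likelihood, so the value of 14840 is not that of the best fit.

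For shares, TPM in place of counts gave differences of the pair of 0.191 (estrus over pre-estrus, SHR), 4.22 (sex, SHR), 3.22 (strain, females) and 3.32 (strain, males), and of the longer row of -0.33 (post-estrus over pre-estrus, BN-Lx). Per spike-in count, as a ratio, they were 0.417 and 0.019 (pair and longer row, estrus over pre-estrus, SHR), 0.712 and 0.071 (post-estrus over estrus, BN-Lx), -0.142 and -0.013 (the same, SHR), -0.15 and -0.075 (sex, BN-Lx) and -0.107 (longer row, strain, females). At post-estrus over estrus in BN-Lx the pair differed by 0.019 without the members in the denominator, 0.652 without the most abundant other row and 0.054 with the spike-ins. Between sexes in SHR it differed by 0.43 without the most abundant other row and 0.015 as log2 share, and between strains in females by 0.053 as log2 share.

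Relations across libraries kept their sign and their call for the pair with the longer row in all 6 subsets. The pair with the most abundant other row was at -0.626 in b37, no longer past the threshold. Shares with total gene counts lost the call in most subsets. For the pair r was then 0.479 in BN-Lx, 0.386 in SHR, 0.405 in b35, 0.551 in b37 and 0.243 without the 2 farthest libraries. For the longer row it was 0.498 in BN-Lx, 0.603 in b35, 0.558 in b37 and 0.459 without the 2 farthest. Both kept the call after group means were subtracted, at 0.440 for the pair and 0.485 for the longer row. The longer row also kept it in SHR, at 0.639. The longer row with the spike-in share (r = 0.442 over all) was at 0.300 in BN-Lx, 0.580 in SHR, 0.428 in b35, 0.472 in b37 and 0.274 without the 2 farthest. The ratio with the most abundant other row was at 0.766 in BN-Lx and -0.545 in SHR, with total gene counts at -0.280 in BN-Lx, 0.664 in SHR (called), -0.092 in b37 and -0.046 after subtracting group means, with the spike-in share at -0.122 in BN-Lx, and with genes detected at 0.270 in SHR, 0.039 in b37 and 0.033 without the 2 farthest. The pair with genes detected was at -0.118 in SHR.

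Leaving out 1 library at a time gave the following ranges where the sign changed. They were -0.146 to 0.246 for estrus against pre-estrus in SHR (log2 fold change, 300-base pair), -0.324 to 0.038 for estrus against pre-estrus in SHR (log2 fold change, longer row), -1.002 to 0.939 for estrus against pre-estrus in SHR (share, 300-base pair), -0.428 to 0.0038 for estrus against pre-estrus in SHR (share, longer row). Ranges were -0.231 to 0.428 for post-estrus against estrus in BN-Lx (log2 fold change, 300-base pair), -0.245 to 0.196 for post-estrus against estrus in BN-Lx (log2 fold change, longer row), -0.228 to 0.027 for post-estrus against estrus in BN-Lx (log2 ratio), -1.92 to 1.69 for post-estrus against estrus in BN-Lx (share, 300-base pair). They were -0.415 to 0.074 for post-estrus against estrus in BN-Lx (share, longer row), -0.043 to 0.374 for post-estrus against pre-estrus in SHR (log2 fold change, longer row), -0.132 to 0.415 for post-estrus against pre-estrus in SHR (share, longer row), -0.025 to 0.169 for sex difference in BN-Lx (log2 fold change, longer row). Ranges were -0.026 to 0.35 for sex difference in BN-Lx (share, longer row), -0.099 to 0.18 for sex difference in SHR (log2 fold change, 300-base pair), -0.968 to 0.786 for sex difference in SHR (share, 300-base pair), -0.072 to 0.087 for strain difference in females (log2 fold change, longer row). They were -0.829 to 0.167 for strain difference in females (share, 300-base pair), -0.138 to 0.126 for suffix b37 against b35 (log2 fold change, 300-base pair), -0.069 to 0.098 for suffix b37 against b35 (log2 fold change, longer row).

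Counts of called genes moved more than 1.5 times. They were 1723 (edgeR) and 150 to 3721 over all settings for strain in females, 145 and 34 to 747 for strain in males, 6 and 0 to 74 for sex in BN-Lx, 6 and 2 to 23 for sex in SHR, 10 and 0 to 139 for the suffix, and 0 against up to 2886 and 5585 for any stage in BN-Lx and strain by stage. Counting error is small against the spread of the shares, but 2 males a strain and 4 females a stage limit the comparisons. Whether depth alters the shares in other ways was not tested.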
